A study of Populus ussuriensis with 12 samples.

Results

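The 8 genes described here encode regulators of the secondary wall and were followed across 12 root RNA-seq libraries of Populus ussuriensis: the NAC factors WND1A (Potri.011G153300), WND1B (Potri.001G448400), WND2A (Potri.014G104800) and WND2B (Potri.002G178700), and the MYB factors MYB002 (Potri.001G258700), MYB021 (Potri.009G053900), MYB003 (Potri.001G267300) and MYB020 (Potri.009G061500). They were taken by gene ID, and all 8 were present among the 34699 IDs of the deposited table. The gene names are those in use for P. trichocarpa, since the table itself carries IDs alone. The study set roots that overexpress PuHox52, a homeodomain-leucine zipper factor, against wild-type roots under 2 nitrogen (N) supplies. The groups, each of 3 libraries, were PuHox52-OE (OE) on low-N medium, wild type (WT) on low-N medium, OE on normal-N medium and WT on normal-N medium. All plants came from clonal in vitro culture on agar medium with sucrose and spent 3 weeks on their N supply before the roots were taken. The labels give neither the promoter of the overexpression construct nor the number of independent OE lines, so a group may rest on 1 line. The row of the overexpressed gene is not named in the table and its level was not analysed here, and for the same reason the root label was not checked against markers.

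WND proteins stand at the top of the network that builds the secondary wall of xylem fibres and vessels. In poplar they are the counterparts of the Arabidopsis SND1 and NST factors, and they switch on a next layer of MYB factors together with enzymes for cellulose, xylan and lignin. MYB002, MYB021, MYB003 and MYB020 are the poplar counterparts of Arabidopsis MYB46 and MYB83, which WND proteins bind and activate directly, and which in turn activate wall biosynthesis genes. Poplar holds each of these regulators as a pair of genome-duplication copies, so WND1A goes with WND1B, WND2A with WND2B, MYB002 with MYB021 and MYB003 with MYB020. In a root these factors are known from the xylem of the stele, which is a small part of the organ.

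Levels are in FPKM, which scales a gene's fragments by its length and by the library's mapped total, so that genes can be compared per length. Low FPKM values in each library were whole multiples of the value of 1 fragment, which gave the relative depth of the libraries. Depth was 0.447 to 0.501 at low N and 1 to 1.22 at normal N, relative to WT, normal N, replicate 1, so low-N values rest on fewer fragments. With these depths, the 8 genes' values could be turned into fragment counts that lay within 0.0032 of a whole number in every library. Counts of a gene ran from 1 to 218 per library, taking the smallest whole numbers that fit. They carry the precision behind each FPKM value, and intervals made from them cover counting error only. Libraries of one group correlated at 0.976 to 0.996 over all tested genes (Pearson, log2 values, across genes). In these bulk samples, fewer xylem cells and less RNA per cell cannot be told apart.

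All 8 regulators were weakly expressed. WND1A was the most abundant of them, with a mean of 4.17 FPKM over the 12 libraries, near the middle of all genes in the table (percentile 48.7). MYB021 followed with 2.04 FPKM, WND1B with 1.87 and WND2A with 1.502. The other 4 averaged 0.545 FPKM (MYB002), 0.467 (MYB003), 0.465 (WND2B) and 0.437 (MYB020), at percentiles 26.3 to 27.7. Only WND1A, WND1B, WND2A and MYB021 reached 1 FPKM in at least 3 libraries and entered the test over 24570 genes. WND2B, MYB002, MYB003 and MYB020 were tested in a second fit without that filter, over the 31539 genes with a value above 0 in any library. Both fits are limma on log2(FPKM + 1) with Benjamini-Hochberg adjustment over all genes of the fit, and a gene is called changed at an adjusted p under 0.05. Log2 fold changes below are on the log2(FPKM + 1) scale with the standard error (SE). That scale understates the change of such low genes, so ratios of group means in FPKM are given beside them. Each SE pools a gene's spread over all 4 groups and is the same in each comparison of 2 groups. Libraries of one group correlated less closely at low N (0.976 to 0.988) than at normal N (0.992 to 0.996). An SE may therefore be too small at low N and too large at normal N.

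The 8 regulators were ordered by group mean of the deposited values. Of the 8, 6 were highest in WT roots at low N and 7 were lowest in OE roots at normal N. The shares of the 31539 genes with a value above 0 were 41.8% and 40.7%. The exceptions were WND1A, highest in WT at normal N and lowest in OE at low N, and MYB002, whose means in OE and WT roots at low N were nearly equal. Of the 24 pairs of neighbours in these orders, 7 had libraries that did not overlap, against 38.8% of such pairs over all genes. The pairs without overlap were WT low N above WT normal N for WND1B and WND2B, WT normal N above OE normal N for WND1A, MYB002 and MYB021, OE low N above OE normal N for WND2A, and OE low N above WT normal N for MYB021. MYB003 and MYB020 had overlapping neighbours throughout.

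**Figure D1:**
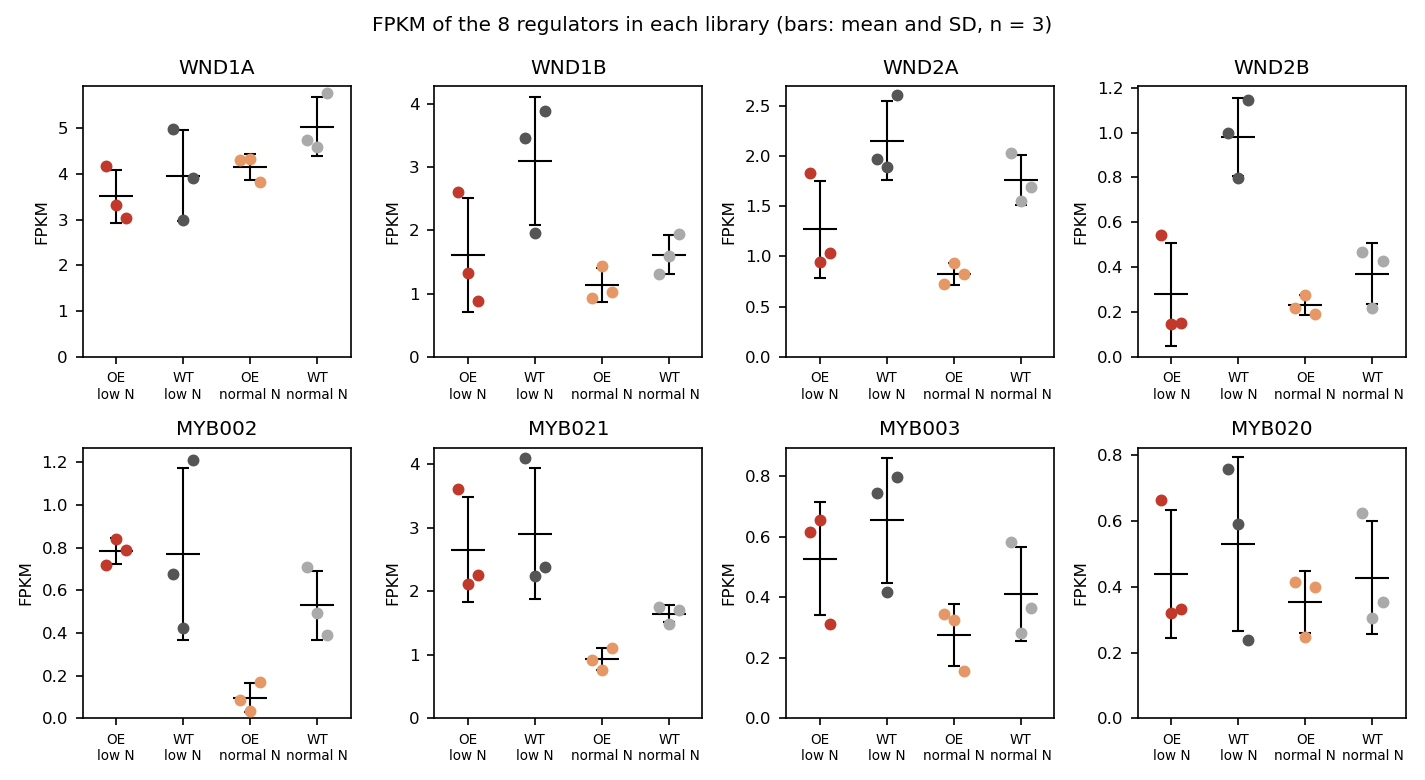
FPKM of each regulator in the 12 libraries, in the order OE low N, WT low N, OE normal N and WT normal N. Points are libraries, horizontal bars are means and whiskers are SD (n = 3), and each panel has its own axis from 0. WND2B stands out in WT at low N, at 0.799 to 1.14 FPKM, and MYB002 is lowest in OE at normal N, at 0.0327 to 0.170 FPKM.

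At low N, 3 WND genes were called lower in OE than in WT roots. The 3 of 8 lay near the share of all genes called in either direction. WND2A and WND1B, of the 4 genes in the filtered test, fell in OE roots (limma, adjusted p = 0.0167 and 0.0311), against 47.9% of all 24570 tested genes that differed between the genotypes in either direction and 30.3% that were lower in OE. In the fit without a filter, WND2B fell as well (adjusted p = 0.00116), so that 3 of 8 regulators were called, all lower, against 39.3% of 31539 genes called and 25.0% called lower. WND2A and WND1B lost their calls in a fit on the low-N libraries alone (limma, adjusted p = 0.0706 and 0.102). None of the 4 MYB genes passed in a fit that tested it, and none had an unadjusted p under 0.05. Group means were lower in OE for 7 of the 8 genes, a count that was not set against all genes. For WND2A and WND2B, 2 of 8, every OE library lay below every WT library, as for 28.4% of all genes. The median log2 fold change of the 8 was -0.12 without a filter, and that of all genes was -0.06. Over all tested genes 4322 were called higher and 7435 lower with the deposited values, against 5538 and 5198 after median-of-ratios scaling.

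At normal N, WND2A and MYB002 were called lower in OE than in WT roots, counts not far from the shares of all genes called. WND2A fell (limma, adjusted p = 0.0127), the 1 call among the 4 genes of the filtered test, against 23.8% of all tested genes called and 17.3% called lower. MYB002 fell in the fit without a filter (adjusted p = 0.0315), where 2 of 8 regulators were called lower, against 18.4% of genes called and 13.5% called lower. All 8 group means of the deposited values were lower in OE roots, a count that was not set against all genes. After quantile normalization MYB020 was higher in OE roots (log2 fold change 0.06, not called). The median log2 fold change of the 8 was -0.26 and that of all genes was -0.06. For 4 of the 8 genes, WND1A, WND2A, MYB002 and MYB021, every OE library lay below every WT library, and 29.2% of all genes did so. The share of genes that are lower in OE moves with the scaling of the libraries. After median-of-ratios scaling 3610 of the 6181 called genes were higher and 2571 lower, against 1607 higher and 4244 lower with the deposited values.

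Low N against normal N gave the most calls among all genes and a few among the regulators. In OE roots MYB021 rose in the filtered test (limma, adjusted p = 0.000664), 1 call against 69.7% of tested genes called and 46.9% called higher, and MYB002 rose in the fit without a filter (adjusted p = 0.000837), which made 2 of 8 higher, against 57.4% called and 38.9% called higher. In WT roots WND1B and MYB021 rose in the filtered test (limma, adjusted p = 0.0313 and 0.0195), against 68.8% of tested genes called and 45.6% called higher. WND2B joined them without a filter (adjusted p = 0.00228), which made 3 of 8 higher, against 57.9% called and 38.4% called higher. Every low-N library lay above every normal-N library for 3 of 8 genes in OE roots (WND2A, MYB002 and MYB021), against 41.6% of all genes, and for 3 of 8 in WT roots (WND1B, WND2B and MYB021), against 41.4%. With the deposited scaling no regulator was called lower at low N in either genotype. The median of all tested genes shifted by 0.22 in OE and 0.19 in WT roots on the log2 scale, and median-of-ratios scaling took these shifts to 0.01 and 0.00. The calls over all genes moved with it: 11516 higher and 5613 lower in OE roots became 8322 and 8350, and 11209 higher and 5700 lower in WT roots became 8054 and 8196. N supply also goes with library depth, and the labels name 2 sequencing companies but not which library went to which, so an effect of N and one of library handling cannot be told apart.

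The OE effect was not shown to differ between the N supplies for the 4 genes of the filtered test. The interaction subtracts the OE effect at normal N from the one at low N. It was called for 0 of them by limma, with 0 at an unadjusted p under 0.05, against 35.9% of all tested genes. Without a filter it was called for WND2B, against 28.8% of genes.

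**Figure D2:**
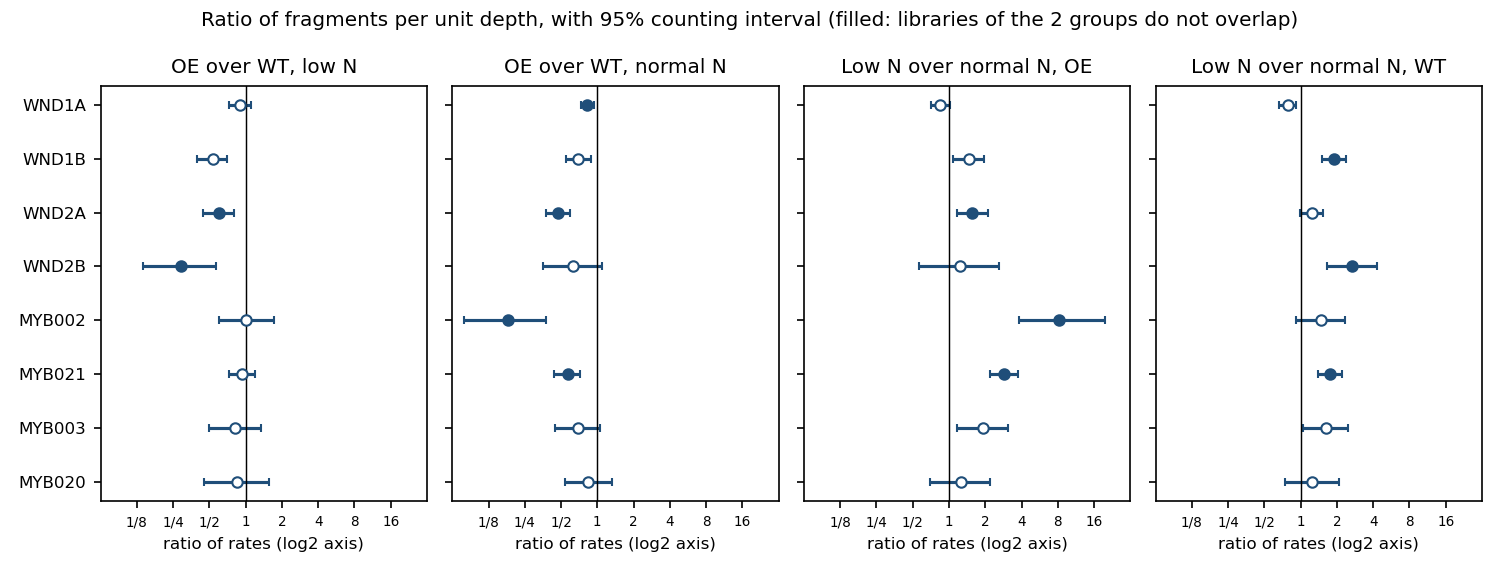
Ratio of fragments per unit of depth for each regulator, OE over WT at each N supply and low N over normal N in each genotype, on a log2 axis. Points are ratios of counts summed over 3 libraries, whiskers are 95% exact intervals for counting error only, and filled points mark groups whose libraries do not overlap. The lowest ratio is that of MYB002 for OE over WT at normal N, 0.181, and the highest is that of MYB002 for low N over normal N in OE, 8.20.

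WND2A and WND2B are NAC master switches of the NST type, known from fibre wall formation. WND2A had 1.83, 0.948 and 1.03 FPKM in OE roots at low N, against 1.97, 1.89 and 2.60 FPKM in WT roots at low N. At normal N it had 0.722, 0.939 and 0.821 FPKM in OE roots, against 2.03, 1.55 and 1.69 FPKM in WT roots. The genotypes did not overlap at either N supply. OE means were 0.590 of WT at low N and 0.470 of WT at normal N, with log2 fold changes of -0.49 ± 0.1498 and -0.59 ± 0.1498 (SE). The fall at low N was lost without WT low-N replicate 3 (limma, adjusted p = 0.0716), OE low-N replicate 2 (0.0692) or OE low-N replicate 3 (0.0552), and in a fit on the low-N libraries alone (0.0706). The fall at normal N was lost without WT normal-N replicate 1 (0.0595) and after quantile normalization (0.0558). It was called in a fit on the normal-N libraries alone (limma, adjusted p = 0.00131). Between the N supplies WND2A was not called, with 1.54 times the normal-N mean in OE roots (limma, adjusted p = 0.0966, and 0.0453 without OE low-N replicate 2) and 1.22 times in WT roots (0.274).

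WND2B had the lowest ratio of OE to WT mean FPKM of the 8 genes at low N, 0.285, although WND1B had the larger log2 fold change. It had 0.543, 0.144 and 0.1495 FPKM in OE roots at low N, against 0.996, 0.799 and 1.14 FPKM in WT roots at low N. These values rest on 8, 2 and 2 fragments in the OE libraries and on 14, 12 and 17 fragments in the WT libraries. The groups did not overlap, and the ratio of rates was 0.292 with a 95% counting interval of 0.140 to 0.564. The log2 fold change was -0.64 ± 0.119 (SE, limma without a filter), and it was called lower without any 1 library and after either scaling, at -0.57 and -0.53. The 3 OE low-N libraries had a chi-square per degree of freedom of 2.62 relative to counting error, and replicate 1 was the high one. Over all groups the value was 1.22. Whether the spread exceeds counting error was not tested on these few fragments.

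At normal N, WND2B had 0.220, 0.278 and 0.193 FPKM in OE roots, against 0.468, 0.218 and 0.429 FPKM in WT roots, and the groups overlapped. The test did not call it there (log2 fold change -0.15 ± 0.119, adjusted p = 0.44), and the ratio of rates was 0.623 with a counting interval of 0.351 to 1.08. In WT roots WND2B rose at low N, to 2.64 times its normal-N mean, with a log2 fold change of 0.53 ± 0.119 (SE, limma without a filter). In OE roots the low-N and normal-N libraries overlapped, and the log2 fold change was 0.04 ± 0.119 (adjusted p = 0.802). The rise in WT roots was called under both scalings and without any 1 of its 6 libraries.

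WND1A and WND1B are the counterparts of SND1, the fibre switch of Arabidopsis. WND1B had 2.61, 1.32 and 0.891 FPKM in OE roots at low N, against 3.46, 1.96 and 3.89 FPKM in WT roots at low N. It had 0.933, 1.44 and 1.03 FPKM in OE roots at normal N, against 1.32, 1.60 and 1.94 FPKM in WT roots at normal N. The genotypes overlapped at both N supplies. The OE mean was 0.519 of WT at low N (log2 fold change -0.67 ± 0.234 SE) and 0.702 of WT at normal N (-0.29 ± 0.234, adjusted p = 0.395). WND1B varied most among replicates relative to counting error, with a chi-square per degree of freedom of 4.36 over the 4 groups. Its call at low N did not hold without WT low-N replicate 1 (limma, adjusted p = 0.0966) or replicate 3 (0.115), without OE low-N replicate 2 (0.0877) or replicate 3 (0.118), or in a fit on the low-N libraries alone (0.102).

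In WT roots WND1B rose at low N to 1.92 times its normal-N mean, and the libraries did not overlap (log2 fold change 0.62 ± 0.234 SE). The call was gone once libraries were scaled by median of ratios (0.46, adjusted p = 0.0846) or by quantile normalization (0.40, adjusted p = 0.127), and without WT normal-N replicate 1 or 2 or WT low-N replicate 1 or 3 (limma, adjusted p = 0.0711 to 0.118). In OE roots it stood at 1.42 times its normal-N mean, which was not called (0.24 ± 0.234, adjusted p = 0.37).

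WND1A had lower mean FPKM at low N than at normal N in both genotypes, and the other 3 WND genes had higher means at low N, a contrast that was not tested. After quantile normalization the log2 fold changes in OE roots were below 0 for all 4, at -0.52 for WND1A, -0.07 for WND1B, -0.02 for WND2A and -0.12 for WND2B, and only that of WND1A was called. WND1A had 4.17, 3.32 and 3.04 FPKM in OE roots at low N, against 4.996, 3.002 and 3.91 FPKM in WT roots at low N. It had 4.31, 4.33 and 3.84 FPKM in OE roots at normal N, against 4.75, 4.59 and 5.79 FPKM in WT roots at normal N. The genotypes overlapped at low N and not at normal N. Neither difference was called (log2 fold change -0.13 ± 0.144, adjusted p = 0.493, at low N, and -0.22 ± 0.144, adjusted p = 0.288, at normal N). Low-N means were 0.844 of normal N in OE roots and 0.787 in WT roots, not called with the deposited values (adjusted p = 0.23 and 0.0836), although the WT difference passed without WT low-N replicate 1 (0.0143). Relative to the median gene WND1A fell at low N in both genotypes: after median-of-ratios scaling by 0.40 in OE roots (adjusted p = 0.0172) and by 0.47 in WT roots (adjusted p = 0.00711) on the log2 scale, and after quantile normalization by 0.52 and 0.54.

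MYB002 and MYB021 belong to the MYB layer that WND factors activate. MYB021, the more abundant copy, had 3.61, 2.11 and 2.25 FPKM in OE roots at low N, against 4.10, 2.24 and 2.38 FPKM in WT roots at low N. It had 0.925, 0.766 and 1.11 FPKM in OE roots at normal N, against 1.75, 1.49 and 1.71 FPKM in WT roots at normal N. The genotypes overlapped at low N and were apart at normal N. OE means were 0.913 of WT at low N (log2 fold change -0.09 ± 0.182 SE, adjusted p = 0.716) and 0.566 of WT at normal N (-0.46 ± 0.182, adjusted p = 0.0872). The second difference passed with a pseudocount of 0.1 (limma, adjusted p = 0.0435) and in a fit on the normal-N libraries alone (0.00588), and leaving out 1 library in turn gave 0.122 to 0.229.

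In OE roots MYB021 had the largest log2 fold change at low N of the 4 genes in the filtered test, and in WT roots WND1B had. OE roots at low N reached 2.85 times their normal-N mean, with libraries that did not overlap and a log2 fold change of 0.90 ± 0.182 (SE). It stayed called under each alternative that kept it in the test, at 0.76 when scaled by median of ratios and 0.58 when scaled by quantiles. WT roots reached 1.76 times their normal-N mean (0.53 ± 0.182), also without overlap. The rise in WT lost its call after median-of-ratios scaling (0.37, adjusted p = 0.0737) and quantile normalization (0.30, adjusted p = 0.135), and without WT normal-N replicate 2 (adjusted p = 0.0643) or WT low-N replicate 1 (0.0999). The 2 rises were not shown to differ, with an interaction of 0.37 ± 0.257 (limma, adjusted p = 0.294).

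MYB002 was close to the limit of detection in OE roots at normal N. It had 0.718, 0.841 and 0.791 FPKM in OE roots at low N, against 0.678, 0.423 and 1.21 FPKM in WT roots at low N. It had 0.0873, 0.0327 and 0.170 FPKM in OE roots at normal N, against 0.707, 0.494 and 0.389 FPKM in WT roots at normal N. The normal-N values rest on 3, 1 and 5 fragments in OE libraries and on 20, 15 and 12 fragments in WT libraries, which did not overlap. The ratio of rates at normal N was 0.181 with a counting interval of 0.0782 to 0.374, and the log2 fold change was -0.48 ± 0.137 (SE, limma without a filter). With a pseudocount of 0.1 the log2 fold change was -1.71 ± 0.361 (adjusted p = 0.00648). With a pseudocount of 1 the call was lost after quantile normalization (adjusted p = 0.0503). It was also lost without WT normal-N replicate 1 or 2 or any 1 of the 3 OE normal-N libraries, at adjusted p = 0.059 to 0.119.

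At low N the genotypes overlapped for MYB002, with a ratio of rates of 1.01 and a counting interval of 0.598 to 1.72. In OE roots MYB002 rose at low N to 8.11 times its normal-N mean, with libraries apart and a log2 fold change of 0.70 ± 0.137 (SE, limma without a filter). The ratio of rates was 8.20 with a counting interval of 3.81 to 19.6. This rise was called without any 1 library and after either scaling, at 0.65 and 0.56. In WT roots the low-N mean was 1.45 times that at normal N and the libraries overlapped (0.19 ± 0.137, adjusted p = 0.256, and 0.0377 without WT low-N replicate 2). The interaction was 0.51 ± 0.193 (adjusted p = 0.0693) and passed with a pseudocount of 0.1 (1.83 ± 0.511, adjusted p = 0.0182), after median-of-ratios scaling (0.55, adjusted p = 0.0438) and without WT low-N replicate 3 (0.68, adjusted p = 0.0046).

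MYB003 and MYB020 passed no comparison in the fit without a filter. MYB003 had 0.616, 0.655 and 0.313 FPKM in OE roots at low N, against 0.745, 0.418 and 0.798 FPKM in WT roots at low N. It had 0.345, 0.323 and 0.157 FPKM in OE roots at normal N, against 0.583, 0.282 and 0.363 FPKM in WT roots at normal N. These groups overlap in each of the 4 pairwise comparisons. Its low-N mean was 1.92 times the normal-N mean in OE roots (log2 fold change 0.26 ± 0.123, adjusted p = 0.0955) and 1.60 times in WT roots (0.23 ± 0.123, adjusted p = 0.133). The first passed without OE low-N replicate 3 (adjusted p = 0.0257) and the second without WT low-N replicate 2 (adjusted p = 0.0367).

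MYB020 had the narrowest range of group means among the MYB genes, from 0.354 to 0.530 FPKM. It had 0.663, 0.321 and 0.332 FPKM in OE roots at low N, against 0.759, 0.592 and 0.239 FPKM in WT roots at low N. It had 0.415, 0.247 and 0.399 FPKM in OE roots at normal N, against 0.624, 0.304 and 0.354 FPKM in WT roots at normal N. All 4 groups overlapped. With 21 to 45 fragments per group, the counting interval of OE over WT at low N was 0.452 to 1.56 around a ratio of 0.845. At normal N it was 0.536 to 1.32 around 0.842. These intervals leave out the spread among replicates, and the smallest detectable difference was not computed.

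Some libraries were high or low for several regulators at a time. The same ranks were not counted over all genes, so a shift of a whole library cannot be told apart from one of these genes. OE low-N replicate 1 was the highest of its group for 6 of the 8 genes. WT normal-N replicate 1 was likewise the highest of its group for 6 of 8. Without it the falls of WND2A and MYB002 in OE roots at normal N were lost (limma, adjusted p = 0.0595 and 0.119). The loss for MYB002 was not particular to that library. Its call also went without WT normal-N replicate 2 (0.0675) or any 1 OE normal-N library (0.059 to 0.108). WT low-N replicate 2 was the lowest of its group for 7 of 8, and WT normal-N replicate 2 for 6 of 8.

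Ratios within a library do not depend on a single factor that scales that library, though quantile normalization can change them. They are given here from the deposited values as a description, with no test. WND1A exceeded WND1B by 1.60 to 3.42 times in OE roots at low N, against 1.005 to 1.53 times in WT roots at low N. At normal N the ratio was 3.00 to 4.62 in OE roots, against 2.87 to 3.60 in WT roots. The pair was nearest to equal in WT roots at low N, and the low-N genotypes did not overlap in the ratio.

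WND2A exceeded WND2B by 3.37 to 6.91 times in OE roots at low N, against 1.97 to 2.36 times in WT roots at low N. The ratio at normal N was 3.28 to 4.26 in OE roots, against 3.95 to 7.11 in WT roots. WND2B had few fragments per library: 2 to 8 in OE and 12 to 17 in WT roots at low N. At normal N it had 6 to 9 in OE and 7 to 14 in WT roots. Again WT at low N had the ratios nearest to equal. WND1A made up 45.6 to 59.5% of the summed FPKM of the 4 WND genes in OE roots at low N, against 33.8 to 43.7% in WT roots at low N. Its share was 62.0 to 69.7% in OE roots at normal N, against 55.4 to 58.8% in WT roots at normal N.

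MYB021 exceeded MYB002 by 2.51 to 5.02 times in OE roots at low N, against 1.97 to 6.05 times in WT roots at low N. At normal N the ratio was 6.53 to 23.4 in OE roots, where MYB002 had 1 to 5 fragments, against 2.47 to 4.39 in WT roots. The ratio of MYB003 to MYB020 ran from 0.393 to 3.34 over the 12 libraries.

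The summed FPKM of the 4 MYB genes was 0.612 to 0.721 of the WND sum in OE roots at low N, against 0.401 to 0.550 in WT roots at low N. The same quotient was 0.196 to 0.312 in OE roots at normal N, against 0.286 to 0.427 in WT roots at normal N. OE roots at low N lay above the other 3 groups, without overlap. The sums were set up after values were seen, and single genes weigh most in them. MYB021 made up 47.7 to 65.3% of the MYB sum over all libraries, and WND1A 33.8 to 69.7% of the WND sum. At normal N the genotypes overlapped, as did the N supplies in WT roots.

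**Figure D3:**
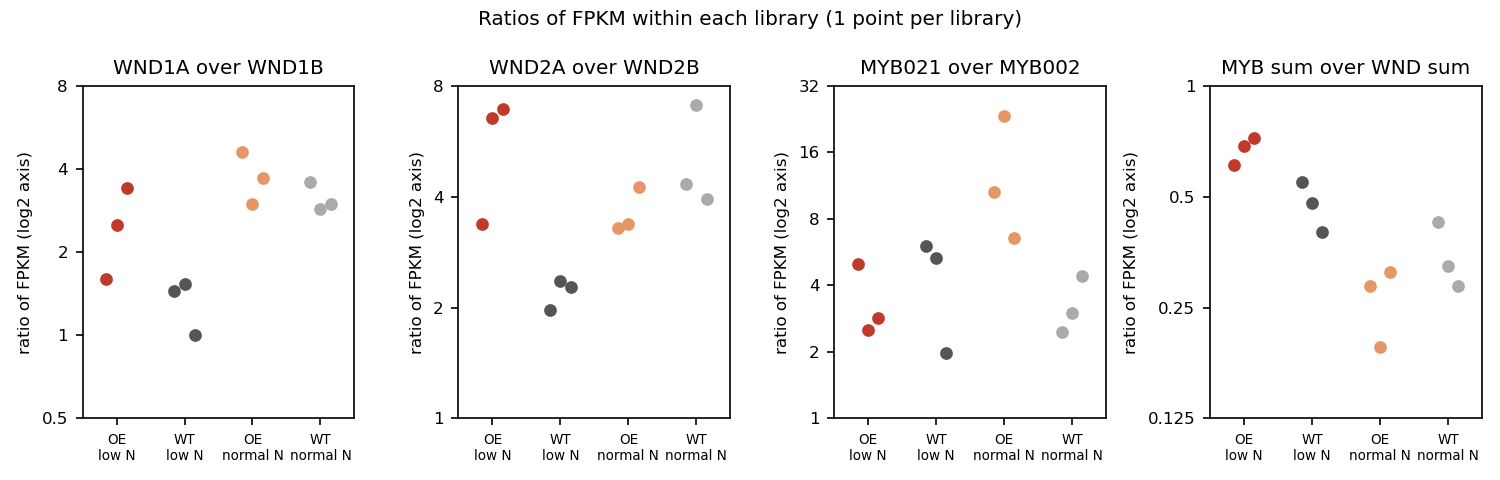
Ratios of FPKM within each library for WND1A over WND1B, WND2A over WND2B, MYB021 over MYB002 and the MYB sum over the WND sum, on log2 axes, with 1 point per library. WT roots at low N hold the lowest WND1A to WND1B and WND2A to WND2B ratios, and OE roots at low N hold the highest quotients of MYB to WND, at 0.612 to 0.721.

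Likeness between profiles was measured as the root mean square difference of log2(FPKM + 1) over the 12 libraries, after each gene was centred on its own mean. Among the 8 genes WND2A and WND2B were nearest, at 0.177, and WND1A and MYB021 farthest apart, at 0.507, although low genes come out near each other on this scale. The gene nearest to the average profile of the 4 WND genes, of 24566 searched, was Potri.010G225300, at 0.0986. The median was 0.366, and the nearest gene lies below it by construction. A gene without any change would lie at 0.273. It had 9.003 to 13.1 FPKM in OE roots at low N, 14.3 to 16.0 in WT roots at low N, 9.19 to 10.4 in OE roots at normal N and 11.3 to 11.8 in WT roots at normal N. For the 4 MYB genes the nearest was Potri.007G063900, at 0.0686, where the median was 0.326 and a gene without any change would lie at 0.238. Its values were 15.3 to 16.7 FPKM in OE roots at low N, 16.3 to 18.3 in WT roots at low N, 11.4 to 11.7 in OE roots at normal N and 12.5 to 14.7 in WT roots at normal N. The table gives no description of either ID.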

How the data were processed

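The authors deposited 1 table of FPKM values, 34699 gene IDs by 12 root libraries, with 1 column per library and 0 columns of other samples. TopHat and DESeq2 appear in the submitters' processing notes without version or role. For the quantifier, genome build and annotation, nothing is given in the sources used here. Columns were assigned by the short label in each sample's description, and groups by its title. That the 3 libraries of a group are biological replicates is the series' own statement.

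Tests used limma 3.58.1 in R 4.3.3 (trend and robust eBayes) on log2(FPKM + 1), with 1 mean per group over 12 libraries and 8 residual degrees of freedom. Genes had to reach 1 FPKM in 3 or more libraries. The 4 members below that filter were taken from the planned fit without it. The filtered fit was also run on simulated data with normally distributed noise. That run did not cover the 4 members below the filter, and its rates of detection are not given here. FPKM is no count, so no count model was fitted. Relative depth came from the ratios of the steps of low FPKM values: 100% of the values of 976 low genes came within 0.1 of whole fragments, against 48.4% with equal depths. Rate ratios sum fragments over a group per unit of depth, with Clopper-Pearson 95% intervals (scipy 1.17.1).

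The members and lists were chosen with earlier results of these data known. Sums over the WND and MYB genes were set up after values were seen. The genes named are the 8 members and the nearest gene to each family's average profile. Lists of other wall genes and of cell type markers had been set by gene description and were not run, because no gene descriptions were used here, and no sequences are shown. Other settings were scaling by median of ratios or by quantiles, a pseudocount of 0.1, a minimum of 5 FPKM or none, the compared groups alone, each library left out in turn and the replicate number as a block. Combinations of these with no filter were chosen after seeing the data.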

Additional observations from a re-analysis of the deposited data

Results flagged for a closer look

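The effect of overexpression on WND2B was called as different between the N supplies in the fit without a filter, as it was for 28.8% of 31539 genes. The interaction for WND2B, which takes the OE effect at normal N away from that at low N, was -0.49 ± 0.169 (SE) on the log2(FPKM + 1) scale (limma, adjusted p = 0.0488). Its OE low-N values rest on 8, 2 and 2 fragments. All 3 OE libraries lay below all 3 WT libraries at low N, and the groups overlapped at normal N. The call was lost with a pseudocount of 0.1 (-1.18, adjusted p = 0.124), after median-of-ratios scaling (-0.44, adjusted p = 0.0577) and without most single libraries, which gave adjusted p from 0.00409 to 0.117. It was kept after quantile normalization (limma, adjusted p = 0.0304) and with the replicate number as a block (0.0413).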

How the results depend on the processing

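Counts of called regulators are small, so most settings that changed them moved 1 gene. The counts are out of 4 genes tested, and out of 8 in settings without a filter. Shares of all tested genes called are given beside them. For OE against WT at low N, 2 were called, 0 in a fit on the 2 groups alone and 0 to 2 when 1 library was left out. The shares of all tested genes were 47.9%, 39.1% and 41.6 to 46.6%. At normal N, 1 was called (23.8% of all genes), 2 with a pseudocount of 0.1 (24.5%) and 2 in a fit on the 2 groups alone (34.7%). Out of 8, 2 were called without a filter (18.4%) and 2 with no filter and a pseudocount of 0.1 (18.8%). After quantile normalization 0 were called (19.7%), and 0 to 1 without 1 library (15.1 to 19.9%). For low N against normal N in WT, 2 were called, 1 after median-of-ratios scaling, 1 after quantile normalization and 0 to 2 without 1 library. Each scaling lost both calls, WND1B and MYB021, and gained WND1A, as a fall. The shares of all tested genes in WT were 68.8%, 66.1%, 66.2% and 63.8 to 66.1%, in the same order. In OE, 1 was called (69.7% of all genes), and out of 8, 2 without a filter (57.4%) and 2 with a pseudocount of 0.1 and no filter (57.9%). There were 2 after median-of-ratios scaling (67.9%), 2 after quantile normalization (66.9%) and 1 to 2 without 1 library (64.1 to 68.5%). The interaction had 0 calls, 1 without a filter (WND2B) and 1 with a pseudocount of 0.1 and no filter (MYB002). The shares of all genes were 35.9%, 28.8% and 28.0%. The count over all genes at normal N, 5851, was 3699 to 4874 without 1 library, the lowest without OE normal-N replicate 3 and 3899 without WT normal-N replicate 1. Apart from the fewer genes or libraries of some settings, the cause was not tested.

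The replicate numbers did not pair the libraries, since same-numbered libraries correlated at -0.127 to 0.0776 in their deviations from the group means. With the replicate number as a block, 2 of the 4 tested regulators were called at normal N in place of 1, as MYB021 passed (limma, adjusted p = 0.0476). The share of all tested genes called there was 22.1%. Counts of regulators in the other comparisons were as without the block.

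Of the member fold changes under other settings, 465 kept their side of the threshold, 40 lost a call and 15 gained one, and no called fold change reversed. At a filter of 5 FPKM no regulator was left to test. Depth limits the low-N values most, and absolute depth is unknown.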
